A study of Homo sapiens with 6 samples.

Results

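The CCAAT/enhancer-binding proteins (C/EBPs) are basic leucine zipper transcription factors, and 5 of their genes, CEBPA, CEBPB, CEBPD, CEBPE and CEBPG, were followed here through 6 RNA-seq libraries of cells labelled HEK293, a human line of embryonic kidney origin. The study's methods name them as HEK293T-Rex FlipIn cells, a derivative made for inducible expression from a fixed site. Members were taken by gene symbol, which gave 5 of the 63190 genes and 6 of the 207167 transcripts in the table. The family was picked on measured values: CEBPE was nearly absent from every library of one group and present in every library of the other. The CEBPE contrast is therefore given as a description without a test, and tests are given for the other members only. The 3 D391N libraries came from cells that overexpressed DIS3L2 D391N, a catalytic-site mutant of the 3′-5′ exoribonuclease DIS3L2, and the 3 control libraries from control cells of the same background. The construct was stably integrated and induced with doxycycline at 100 ng/ml for 24 h. Whether the controls received doxycycline is not given in the sources used here. Since the mutant was carried by a single stable line, an effect of the construct and a difference between the lines cannot be told apart, and p-values measure only the spread between these libraries, which may be technical.

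C/EBP proteins bind DNA as dimers through the leucine zipper, with one another and with related zipper proteins such as ATF4 and CHOP. C/EBPα halts proliferation and drives differentiation of granulocytes, hepatocytes and fat cells, C/EBPβ and C/EBPδ act early in fat cell formation and in the acute-phase response, and C/EBPε is needed for the late steps of granulocyte maturation, where it switches on secondary granule genes. C/EBPγ is broadly expressed, lacks a typical activation domain and works mainly as a dimer partner. C/EBPε is known for myeloid cells and not for kidney epithelium.

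The sequences just upstream of the transcription start are shown for CEBPE, because its RNA was present in one group only, and for CEBPA and CEBPG, which lie near each other on one chromosome at very different RNA levels. They are the 250 bases before the RefSeq start in GRCh38.p14, written 5′ to 3′ on the strand of the gene, with capitals marking the motif matches named after them. CEBPE is on the minus strand at chr14:23119256-23119505, CEBPA on the minus strand at chr19:33302535-33302784 and CEBPG on the plus strand at chr19:33373459-33373708.
CEBPE: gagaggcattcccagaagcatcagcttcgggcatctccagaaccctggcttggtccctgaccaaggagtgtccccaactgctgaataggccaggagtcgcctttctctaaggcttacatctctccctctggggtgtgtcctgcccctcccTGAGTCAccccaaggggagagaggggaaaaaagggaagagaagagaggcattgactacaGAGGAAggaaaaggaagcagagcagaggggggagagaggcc
CEBPA: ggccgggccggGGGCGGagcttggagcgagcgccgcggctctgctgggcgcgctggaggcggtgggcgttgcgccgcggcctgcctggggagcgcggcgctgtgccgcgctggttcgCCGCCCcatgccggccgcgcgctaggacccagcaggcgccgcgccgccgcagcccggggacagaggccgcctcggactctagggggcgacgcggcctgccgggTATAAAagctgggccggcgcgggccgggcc
CEBPG: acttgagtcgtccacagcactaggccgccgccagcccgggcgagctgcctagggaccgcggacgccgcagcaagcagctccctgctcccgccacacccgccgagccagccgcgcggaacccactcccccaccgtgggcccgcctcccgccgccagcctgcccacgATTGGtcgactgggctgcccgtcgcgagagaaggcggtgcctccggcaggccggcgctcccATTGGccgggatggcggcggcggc
The CEBPE window had a GC content of 57.2%, close to the median of 58.0% over 35116 RefSeq promoter windows of the same length, whereas those of CEBPA (81.2%) and CEBPG (76.0%) were richer in GC. In CEBPE, an AP-1 letter match (TGANTCA) began 100 bases before the start and a purine-rich ETS core (GAGGAA) 41 bases before it. In CEBPA, TATAAA began 30 bases before the start, and the GC box letters GGGCGG matched at 2 places, the nearer one 133 bases before the start. In CEBPG, CCAAT matched at 2 places on the opposite strand, the nearer one 24 bases before the start. Both strands were searched, and of all windows 6.57% held TGANTCA, 23.6% GAGGAA, 10.7% TATAAA, 42.6% GGGCGG and 32.0% CCAAT. The C/EBP site letters TTGCNNAA and the C/EBP-ATF element TGATGNAA, held by 9.05% and 3.14% of windows, had no match in these 3 windows. A match is a description of the letters and not evidence of binding.

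The values are RPKM, reads scaled by transcript length and library size, estimated by the authors with BitSeq for each transcript and summed here over the transcripts of a gene. Read numbers were not given, so the reads behind each value were estimated from the posterior variance that BitSeq gives beside it. On that estimate the D391N libraries held 0.734, 0.632 and 0.817 times the depth of control replicate 2, and control replicates 1 and 3 held 0.947 and 0.679 times. Over genes with a mean of at least 1 RPKM, pairs of control libraries correlated at 0.959 to 0.977 and pairs of D391N libraries at 0.885 to 0.935 (Pearson's r of log2 values across genes). DIS3L2 itself stood at 369, 467 and 512 RPKM in D391N and at 11.8, 12.9 and 14.6 RPKM in control, as the labels require. Tests were limma on log2(RPKM + 0.1) over all 20714 genes whose mean reached 1 RPKM, and a Benjamini-Hochberg adjusted p under 0.05 was called. Of these genes 0.140% were called (29, of which 28 were lower in D391N). In 20.7% of the tested genes every D391N library lay below every control library, and in 10.5% every one lay above. An unadjusted p under 0.05 was reached by 22.7% of the tested genes, and by 16.0% with a lower level in D391N. The median log2 fold change of all tested genes was -0.09. It became 0.13 with median centring and 0.08 with quantile normalization, so a small change depends on the scaling.

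In control cells the family was dominated by CEBPE and CEBPG. CEBPE made up 41.1% to 51.6% of the summed RPKM of the 5 genes, and CEBPG 42.2% to 53.1%. Their levels overlapped, at 54.9 to 71.2 RPKM for CEBPE and 58.3 to 70.8 RPKM for CEBPG. CEBPA (3.89 to 5.01 RPKM), CEBPB (2.42 to 2.84 RPKM) and CEBPD (0.977 to 1.23 RPKM) followed in that order without overlap. In D391N cells CEBPG alone made up 88.4% to 95.2% of the family. CEBPA was above CEBPB in each of these libraries, although their ranges overlapped (1.13 to 3.24 against 0.997 to 1.82 RPKM), CEBPD was next at 0.396 to 0.972 RPKM, and CEBPE was last at 0.0140 to 0.0430 RPKM.

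**Figure D1:**
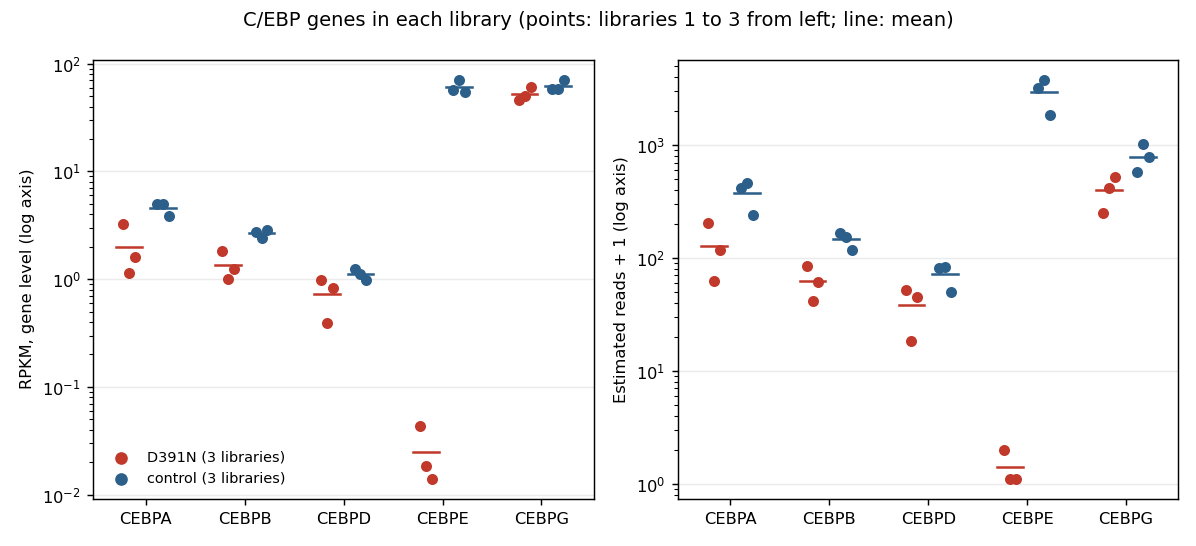
Level of each C/EBP gene as RPKM on a log axis (left) and reads estimated behind it, plus 1, on a log axis (right). Points are the 3 D391N (red) and 3 control (blue) libraries and lines are means. CEBPE stood at 54.9 to 71.2 RPKM in control and at 0.0140 to 0.0430 RPKM in D391N, while CEBPG overlapped between the groups.

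CEBPE (ENSG00000092067, chr14:23117306-23119255 in GRCh38) has 1 transcript in the table, ENST00000206513. It stood at 57.1, 71.2 and 54.9 RPKM in control replicates 1 to 3, a mean of 61.0 ± 8.86 (SD, n = 3), and this mean was above that of 90.5% of the tested genes. In D391N replicates 1 to 3 it stood at 0.0430, 0.0184 and 0.0140 RPKM. Control libraries carried an abundant message, and D391N libraries stood near the level the model gives to a transcript without reads. The estimated reads were 3229, 3822 and 1851 in control, and 1.0, 0.1 and 0.1 in D391N, where 1 read is worth 0.0275, 0.0301 and 0.0230 RPKM. At the control level and the depth of the D391N libraries, 6983 reads would have been expected there, against 1 when the estimate is rounded to whole reads. The ratio of control to D391N was thus 6983 by reads and 2426 by the means of RPKM, where D391N includes the level given without reads. The first ratio rests on an estimate rounded to 1 read in D391N. No interval is given, since these values chose the family. The fitted log2 fold change of -8.93 depends on the added 0.1 RPKM and is no bound.

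The family was chosen on the on-off form of this contrast, so the count of genes that share it is a description. By a definition set after the values were seen, at least 100 estimated reads in each library of one group and under 3 in each library of the other, CEBPE and ZNF22 were the 2 genes present in control and absent from D391N, out of 9821 genes with that many reads in each control library. In the opposite direction there were 0, out of 8566 genes. ZNF22, which encodes a zinc finger protein, lay at 2.26, 2.39 and 1.72 RPKM in control and at 0.0246, 0.0119 and 0.00876 RPKM in D391N. Its level in control was thus far below that of CEBPE, and it lies on another chromosome, at chr10:45000923-45005326. The 5 genes whose centred log2 profile over the 6 libraries lay nearest to that of CEBPE, among 20713 genes, were copies of U6 small nuclear RNA: RNU6-562P, RNU6-1080P, RNU6-439P, RNU6-1153P and RNU6-1205P, at root-mean-square distances of 1.66, 1.66, 1.73, 1.77 and 1.81. Reads of such copies may not be assigned with certainty, and their sequences were not compared here. Some of these profiles were thin or uneven. RNU6-562P had 17.8, 139 and 67.5 estimated reads in control, and RNU6-1153P stood at 94.6, 357 and 2062 RPKM in control. Restricted to 12708 protein-coding genes, a choice made after the values were seen, the nearest were ZNF22 (2.34), TENM1 (2.37) and H2BC10 (2.43). TENM1 stood at 8.43, 12.2 and 14.6 RPKM in control and at 0.483, 0.973 and 0.201 RPKM in D391N. Each of these genes was therefore farther from CEBPE than the U6 copies were.

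**Figure D2:**
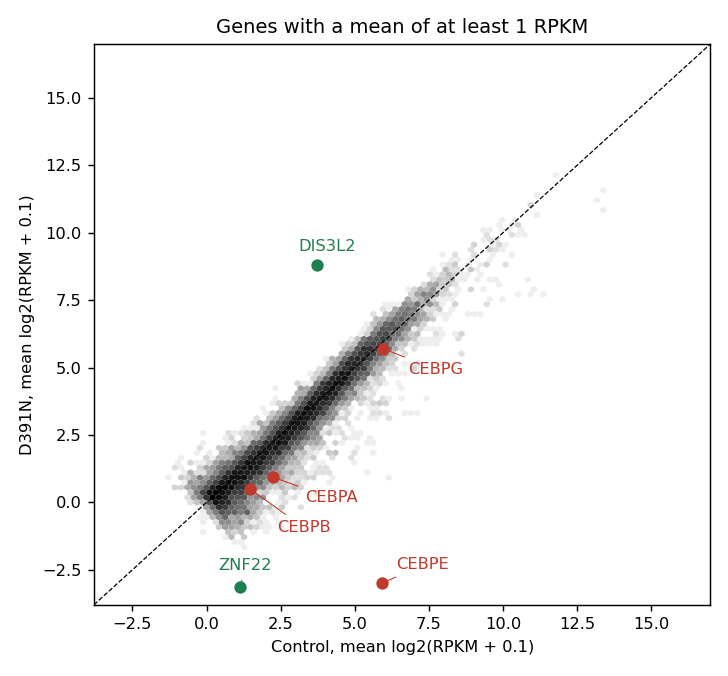
Mean log2(RPKM + 0.1) over the 3 control libraries (horizontal) and the 3 D391N libraries (vertical) for the 20714 genes with a mean of at least 1 RPKM, with darker grey for more genes and a dashed line at equality. CEBPE lies far below the line, with ZNF22 below it at a lower control level, DIS3L2 lies above it, CEBPA and CEBPB lie below it near the other genes, and CEBPG lies close to it.

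CEBPA (ENSG00000245848, chr19:33299934-33302534) is an intronless gene. It stood at 4.96, 5.01 and 3.89 RPKM in control and at 3.24, 1.13 and 1.60 RPKM in D391N, on 241 to 459 and 61.1 to 205 estimated reads. Every D391N library lay below every control library, D391N replicate 1 being the nearest to them. The means were 4.62 ± 0.635 and 1.99 ± 1.10 RPKM (SD, n = 3). On the log2 scale the difference was -1.29 ± 0.38 (SE), with a limma adjusted p of 0.135. CEBPA was therefore not called. Without D391N replicate 1 the log2 fold change was -1.70 and the adjusted p 0.0248, in a fit that called 10.9% of genes, and without D391N replicate 2 they were -0.98 and 0.196.

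CEBPB (ENSG00000172216, chr20:50190583-50192690), likewise intronless, had a similar profile at a lower level. Its control values were 2.75, 2.42 and 2.84 RPKM and its D391N values 1.82, 0.997 and 1.24 RPKM, on 117 to 167 and 40.4 to 83.1 estimated reads. Again no D391N library reached the lowest control library. Control and D391N averaged 2.67 ± 0.222 and 1.35 ± 0.423 RPKM (SD, n = 3). The log2 fold change of -0.97 ± 0.28 (SE) missed the threshold with a limma adjusted p of 0.131. Without D391N replicate 1 it was -1.19, with an adjusted p of 0.0437 in the same fit that called 10.9% of genes.

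CEBPD (ENSG00000221869, chr8:47736913-47738164) was the lowest member in control. It measured 1.23, 1.12 and 0.977 RPKM there and 0.972, 0.396 and 0.822 RPKM in D391N. The groups touched, with D391N replicate 1 just under control replicate 3. The means were 1.11 ± 0.125 and 0.730 ± 0.299 RPKM (SD, n = 3), and the mean of the 6 libraries was under 1 RPKM, so CEBPD was not among the genes tested. With the filter lowered to 0.1 RPKM its limma log2 fold change was -0.61 and its adjusted p 0.448. Without D391N replicate 2, the lowest library, the log2 fold change was -0.28.

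CEBPG (ENSG00000153879, chr19:33373709-33382686) was the most abundant member in D391N cells. Its values were 58.5, 58.3 and 70.8 RPKM in control and 46.2, 50.0 and 60.1 RPKM in D391N. The groups overlapped, D391N replicate 3 lying above 2 of the control libraries. With means of 62.5 ± 7.16 and 52.1 ± 7.17 RPKM (SD, n = 3), the log2 fold change was -0.27 ± 0.16 (SE) and the limma adjusted p 0.372. Of its 2 transcripts, ENST00000585933 was the more abundant, at 37.1, 42.7 and 53.9 RPKM in control and 30.9, 33.7 and 38.6 RPKM in D391N. ENST00000284000 stood at 21.4, 15.6 and 16.9 RPKM in control and 15.3, 16.3 and 21.4 RPKM in D391N. Neither was called at the transcript level, where 0.0604% of 54671 transcripts were, with log2 fold changes of -0.36 (limma adjusted p = 0.471) and -0.03 (limma adjusted p = 0.968).

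The 5 genes summed to 124, 138 and 133 RPKM in control and to 52.3, 52.5 and 63.8 RPKM in D391N. Without CEBPE the sums were 67.4, 66.9 and 78.5 RPKM against 52.2, 52.5 and 63.7 RPKM. No D391N library reached a control library in either sum. The first sum rests on CEBPE, on which the family was chosen, and the second mostly on CEBPG, which by itself overlapped between the groups. Of the 3 members tested without being used in the choice, CEBPA and CEBPB were lower in all D391N libraries than in all controls, a pattern that 20.7% of the tested genes shared, and 0 of 3 were called by limma, with 2 of 3 at an unadjusted p under 0.05 (CEBPA 0.0119, CEBPB 0.0107), which 22.7% of all tested genes reached.

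Transcripts that lie beside the members or share their name were also read. The divergent CEBPA-DT (ENSG00000267296, chr19:33302821-33305057), a noncoding RNA that starts close to CEBPA and runs the other way, stood at 3.47, 3.55 and 3.03 RPKM in control and at 1.82, 2.63 and 1.68 RPKM in D391N. All D391N libraries were lower, as for CEBPA, with a log2 fold change of -0.71 and a limma adjusted p of 0.161. The antisense CEBPB-AS1 overlapped between the groups, at 1.77, 1.70 and 2.01 against 1.45, 2.15 and 1.21 RPKM (log2 fold change -0.21, limma adjusted p = 0.693). It overlaps CEBPB, and whether strand was used in assigning reads was not given in the sources used here, so reads of the pair may not be separable. CEBPZ shares the name but is not a zipper protein, and it was placed the other way, at 45.5, 36.3 and 36.3 RPKM in control and 46.8, 47.3 and 57.9 RPKM in D391N. Every D391N library was higher, as in 10.5% of all tested genes, with a log2 fold change of 0.36 and a limma adjusted p of 0.243. The CEBPZ transcripts differed. ENST00000234170 was higher in all D391N libraries (log2 fold change 0.64) and ENST00000489306 lower in all (-1.80, on 4.7 to 7.6 estimated reads in D391N). ENST00000446769 and ENST00000619061 overlapped between the groups.

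No tested neighbour of a member had a contrast of the size of that of CEBPE, which was chosen on its contrast. The neighbours lay 607 (SPIDR) to 4534058 (HGSNAT) bases from their member, and those of CEBPE 6040 to 176397 bases. The 3 nearest protein-coding genes on each side of each member gave 26 distinct genes, CEBPA and CEBPG among them, of which 19 were tested and 0 were called by limma, the lowest adjusted p being 0.0711. Next to CEBPE, SLC7A8, an amino acid transporter gene, measured 6.19, 6.94 and 6.26 RPKM in control and 5.93, 6.34 and 5.88 RPKM in D391N. These groups overlapped, and the log2 fold change was -0.09. The 5 tested neighbours of CEBPE had log2 fold changes of -0.83 to -0.09, with adjusted p-values of 0.113 or more, and 3 of them lay lower in all D391N libraries than in all controls. Over all neighbours this held for 8 of the 19 tested and the reverse for 0, against 20.7% and 10.5% of all tested genes.

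**Figure D3:**
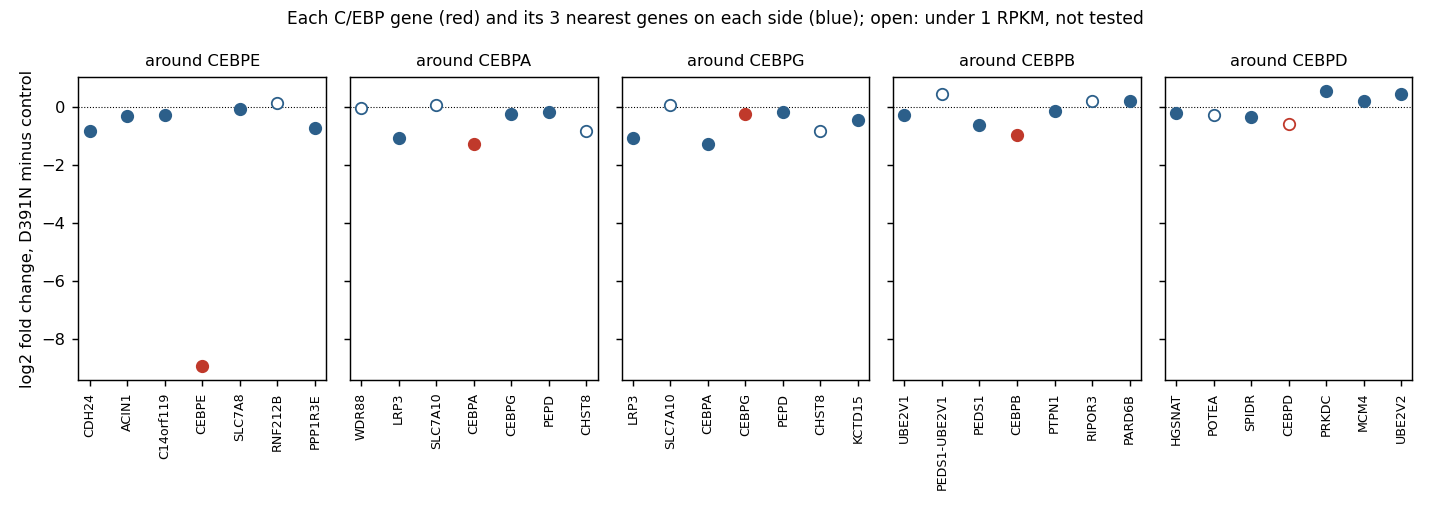
Log2 fold change of RPKM + 0.1, D391N minus control, for each C/EBP gene (red) and the 3 nearest protein-coding genes on each side in chromosome order (blue). Open points had a mean under 1 RPKM and were not tested. CEBPE at -8.93 stands alone, with its tested neighbours between -0.83 and -0.09.

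Genes that act with the C/EBP proteins were read from lists. Dimer partners and related zipper genes (19 listed, 18 tested) had a median log2 fold change of -0.37, against -0.09 over all genes, and it stayed negative with median centring (-0.15) and quantile normalization (-0.14), where all genes had positive medians. None was called in either direction, and 6 (33.3%) had an unadjusted limma p under 0.05, all lower in D391N, against 16.0% of all genes. In 5 of 18 (27.8%) all D391N libraries lay lower, against 20.7% of all genes. ATF4, which pairs with C/EBPβ and C/EBPγ on amino acid response elements, was the most abundant. It stood at 398, 394 and 483 RPKM in control and at 285, 251 and 282 RPKM in D391N. The D391N libraries were all lower, with a log2 fold change of -0.63 ± 0.18 (SE) and a limma adjusted p of 0.129. The AP-1 subunit JUN, the cAMP-responsive factor CREB1 and the stress factor ATF3 overlapped between the groups, with log2 fold changes of -0.15, -0.03 and -0.06. Without D391N replicate 1, 2 of the 18 (11.1%) were called, JUND and DBP, both lower and named after their values were seen, close to the 10.9% of all genes called in that fit.

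Regulators and cofactors of C/EBP proteins (22 listed, 22 tested) had a median log2 fold change of 0.04. None was called, and 11 (50.0%) had an unadjusted limma p under 0.05, 6 of them lower, against 22.7% of all genes. In 7 (31.8%) every D391N library was lower and in 5 (22.7%) every one was higher, against 20.7% and 10.5% of all genes. CALR, known as a binder of C/EBP messages besides its work as a chaperone, measured 389, 406 and 264 RPKM in control and 446, 761 and 647 RPKM in D391N. All D391N libraries were higher (log2 fold change 0.80 ± 0.29, SE, limma adjusted p = 0.178). PCBP2, an RNA-binding protein, overlapped with a log2 fold change of 0.06. SMARCA4, the ATPase of the SWI/SNF remodelling complex, was higher in all D391N libraries (0.43, limma adjusted p = 0.203), and CDK4, a cell cycle kinase that C/EBPα is known to inhibit, was lower in all of them (-0.52, limma adjusted p = 0.149). Without D391N replicate 1, 3 of 22 (13.6%) were called, MAPK3 and GSK3A lower and COP1 higher, named after their values were seen, near the 10.9% of all genes.

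Amino acid and stress genes of the C/EBP-ATF response (12 listed, 11 tested) were read next, without looking up the element in each. Their log2 fold changes were negative throughout, from -0.99 to -0.09, with a median of -0.63. The median was -0.41 with median centring and -0.53 with quantile normalization. None was called, 5 (45.5%) had an unadjusted limma p under 0.05, all lower, against 16.0% of all genes, and 7 of 11 (63.6%) lay lower in all D391N libraries, against 20.7% of all genes. SHMT2, a mitochondrial enzyme of serine metabolism, stood at 99.6, 93.8 and 106 RPKM in control and at 54.9, 65.6 and 64.0 RPKM in D391N. The groups were well apart, with a log2 fold change of -0.70 ± 0.14 (SE) and a limma adjusted p of 0.0905. ASNS, asparagine synthetase and a classical ATF4 target, was lower in all D391N libraries (-0.63, limma adjusted p = 0.226), whereas the serine synthesis genes PHGDH (-0.33) and PSAT1 (-0.14) overlapped. Without D391N replicate 1, 5 of 11 (45.5%) were called, all lower: SHMT2, SLC3A2, DDIT4, TRIB3 and SLC7A5, of which the last 4 are named after their values were seen. That fit called 10.9% of all genes.

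**Figure D4:**
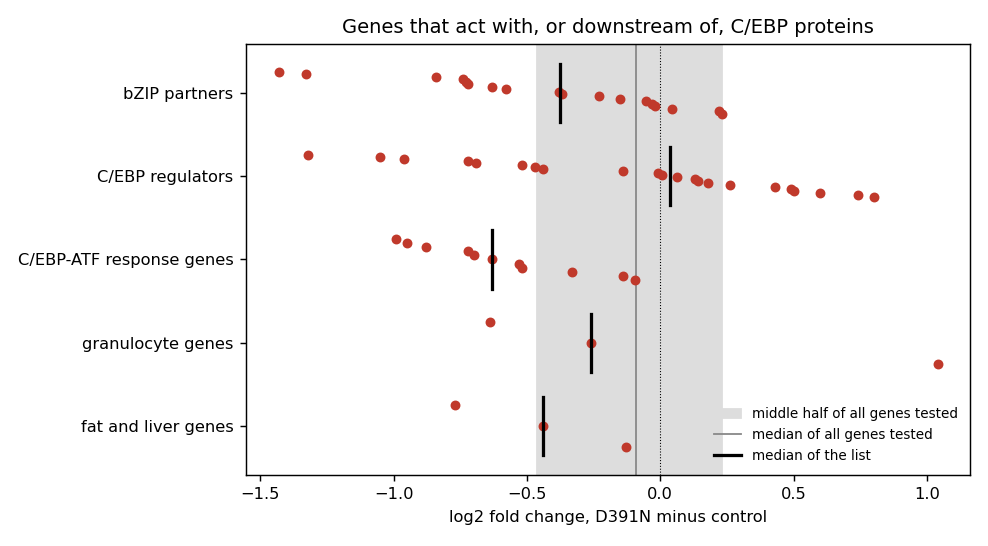
Log2 fold change of RPKM + 0.1, D391N minus control, for the tested genes of 5 lists (points), with the median of each list (black bar), the median of all tested genes (grey line) and their middle 50% (grey band). The 11 tested C/EBP-ATF response genes lie below 0, the regulators lie on both sides, and the granulocyte and the fat and liver lists have only 3 tested genes each.

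Of 15 listed granulocyte genes, among them those that C/EBPα and C/EBPε switch on in these cells, 9 had under 3 estimated reads in each library. They include the primary granule genes MPO and ELANE and the secondary granule genes LTF, CAMP and LCN2. A difference in these 9 genes was not detectable at this depth. The 3 genes tested were GFI1, CSF3R and LYZ, and none was called. GFI1, a transcriptional repressor, measured 4.90, 4.49 and 7.26 RPKM in control and 3.58, 3.54 and 3.21 RPKM in D391N (log2 fold change -0.64, limma adjusted p = 0.172). CSF3R, the receptor of granulocyte colony-stimulating factor, measured 1.16, 1.38 and 1.14 RPKM in control and 2.39, 4.42 and 1.71 RPKM in D391N (1.04, limma adjusted p = 0.171). The groups did not overlap in these 2 genes and lay in opposite orders, as 20.7% of all genes did with D391N below and 10.5% with D391N above. GFI1 rested on only 12.8 to 13.9 estimated reads in D391N and 21.2 to 21.5 in control. CSF3R rested on 38.8 to 90.8 in D391N and 22.7 to 52.7 in control. LYZ overlapped (-0.26), and BPI, the next in abundance, was under the filter with 2.1 to 10.7 estimated reads. AZU1, also a primary granule gene, had 5.5 to 20.4 estimated reads at 0.203 to 0.535 RPKM, and overlapped. MMP8 had 0.0 to 5.0 estimated reads.

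Fat and liver genes (13 listed) had 3 tested members and none was called. The 3 had a median log2 fold change of -0.44. In 2 of 3 (66.7%) all D391N libraries lay lower, against 20.7% of all genes. An unadjusted limma p under 0.05 was reached by 1 of 3 (33.3%), against 22.7% of all genes. Shares of only 3 genes are coarse. SCD, a desaturase of fatty acid synthesis, stood at 108, 99.1 and 92.3 RPKM in control and at 77.2, 56.1 and 91.4 RPKM in D391N. D391N replicate 3 nearly reached control replicate 3, and the log2 fold change was -0.44 with a limma adjusted p of 0.257. PPARG, the nuclear receptor that C/EBPα sustains in fat cells, overlapped (-0.13), and LPL, lipoprotein lipase, was lower in all D391N libraries (-0.77, limma adjusted p = 0.129). CD36, a fatty acid transporter, was under the filter, and ADIPOQ, FABP4, TTR and APOA1 had under 3 estimated reads in each library.

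Markers bear on which cells were measured. Of 8 HEK293 markers 7 were tested and none was called. The most abundant were VIM (110 to 177 RPKM), KRT8 (98.6 to 180 RPKM), NEFL (26.9 to 88.0 RPKM) and KRT18 (26.5 to 40.7 RPKM). PAX2 was low, at 1.31 to 1.93 RPKM. NEFM was under the filter, at 0.241 to 0.638 RPKM on 3.6 to 12.4 estimated reads. The sum of the 8 HEK293 markers was 311 to 366 RPKM in D391N and 458 to 532 RPKM in control. The median log2 fold change of the 7 tested was -0.43, and 4 of 7 (57.1%) lay lower in all D391N libraries. These markers, which were not listed for any tie to C/EBP proteins, thus had values of the same order as the partners (-0.37, 27.8%) and the C/EBP-ATF response genes (-0.63, 63.6%). Without D391N replicate 1, KRT8 was called lower, 1 of 7 (14.3%) against 10.9% of all genes. Of 8 leukocyte markers, PTPRC, TYROBP, CD53 and LAPTM5 had under 3 estimated reads in each library. CD33 had 8.2 to 19.7 estimated reads in each library, at 0.361 to 0.916 RPKM, and overlapped between the groups. ITGAM, CSF1R and CD14 had at most 8.0, 5.2 and 3.9 estimated reads in a library. The sum of the 8 was 3.16 to 4.36 RPKM in D391N and 3.33 to 4.56 RPKM in control, but these sums consist largely of levels given without reads and show little about leukocytes. PTPRC was listed at 1.34 to 1.77 RPKM on fewer than 1 estimated read a library, since the levels given to transcripts without reads add up over its transcripts. The part of these differences in the C/EBP results was not tested. In such bulk RNA, fewer cells with a message and less message per cell cannot be told apart.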

How the data were processed

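The deposited table holds ln RPKM (natural log) per transcript in every library, as BitSeq's posterior mean, with the posterior variance beside it, both computed by the authors. Per the study's methods, ribosomal RNA was depleted, single-end reads were trimmed with cutadapt and aligned with Segemehl to Ensembl transcripts of hg38. Tool versions are not given in the sources used here. The exponential of the mean was summed per gene, and 88.2% of 63190 gene identifiers had a symbol. Reads were estimated by inverting the trigamma function of the variance. The main values had no floor, and an alternative set transcripts under 3 estimated reads at the level of 3 reads. Groups came from the sample titles. limma 3.58.1 (R 4.3.3, with trend) was run on log2(RPKM + 0.1) for genes or transcripts averaging 1 RPKM or more, unpaired, with Benjamini-Hochberg adjustment over all of them. A run on simulated normal noise used planted changes larger than those of the tested members. It checked the code and not the power to find smaller changes. No gene of a list passed the threshold, so each list was named by its 4 most abundant members. CEBPE's likeness used 5 nearest genes, and neighbours were taken 3 a side. Members and lists were chosen with earlier results of these data known. Alternatives were pseudocounts, filters, scalings, trend, a replicate block and single libraries left out.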

Additional observations from a re-analysis of the deposited data

How the results depend on the processing

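The log2 fold changes of CEBPA (-1.70 to -0.97), CEBPB (-1.19 to -0.65), CEBPD (-0.83 to -0.28) and CEBPG (-0.37 to -0.05) stayed negative under every alternative run, with adjusted p-values of 0.0248 to 0.343, 0.0437 to 0.344, 0.448 to 0.641 and 0.270 to 0.910. With 1 library left out they spanned -1.70 to -0.98 for CEBPA and -1.19 to -0.79 for CEBPB, and D391N replicate 1 decided both calls. CEBPE was -5.91 with a pseudocount of 1, -10.84 with 0.01, -8.71 with median centring, -8.65 with quantile normalization and -8.39 with D391N set at 3 reads. Genes called, 29 in the report, were 61 with a pseudocount of 1, 16 with 0.01, 6 with a minimum of 5 RPKM, 18 without a filter, 14 with median centring, 17 with quantile normalization and 2 to 2267 with 1 library left out. Transcripts called, 33 in the report, were 142 with a pseudocount of 1, 17 with the minimum of 5 RPKM, 18 without a filter, 52 without the trend and 2 to 4984 with 1 library left out. The cause was not tested. With a replicate block 2 genes and 7 transcripts were called, and CEBPA, CEBPB and CEBPG had adjusted p-values of 0.181, 0.193 and 0.439. The labels tie same-numbered libraries by number only, and their deviations correlated at 0.07, 0.22 and -0.11. The study's methods describe 3 barcoded libraries pooled in 1 lane. Which libraries shared a lane is not given, so a lane effect could not be tested. CEBPD, on 17.2 to 82.0 estimated reads a library, was left out of the main fit by the filter, with a mean of 0.919 RPKM. Depth limits the granule genes.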
